A study of Mus musculus with 10 samples.

Results

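The collagens and the matrix proteoglycans and glycoproteins found with them were followed in mouse liver over a week of calorie restriction and refeeding. The set was chosen by name and not by its values: every gene of the deposited count table whose symbol is that of a collagen chain (Col, a number, a, a number), together with Sparc, Bgn, Dcn, Lum, Fn1, Fbn1, Eln, Nid1, Hspg2, Lox, Timp1, Timp2 and Timp3. It held 56 of the 17359 genes in the table, 43 collagen chains and 13 others. The livers came from mice on a high-fat diet in all 3 groups. Refed livers (RF, n = 3) were taken on day 7 of the cycle, after free feeding from day 5, and restricted livers (LC, n = 4) on day 3, at a calorie reduction of 70%. Both followed a cut of 50% on day 1 and of 70% on day 2, and the refed mice had a further day at 50% on day 4. Control livers (AL, n = 3) were from mice fed ad libitum throughout. Poly(A) RNA was sequenced without strand on a BGI DNBSEQ instrument. The labels give no strain, sex, age, hour of collection or feeding state, and do not say that samples are separate animals, so p-values stand for the spread among these 10 samples, which may be technical.

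Collagens are helices of 3 chains that are wound in the endoplasmic reticulum, trimmed outside the cell and then cross-linked into fibrils, networks or filaments. In a healthy liver the interstitial fibrils lie mainly around vessels and portal tracts and are made by stellate cells and portal fibroblasts, while hepatocytes and sinusoidal endothelium add components of the thin matrix in the space of Disse. Small leucine-rich proteoglycans coat the fibrils, glycoproteins tie networks and cells together, and tissue inhibitors of metalloproteinases (TIMPs) slow matrix breakdown.

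Library totals were 14601704 to 15502191 counts at RF, 13871533 to 15801532 at LC and 14179742 to 15899479 at AL. Of the 56 genes, 39 passed the filter on low counts, which asked for about 0.65 CPM (counts of a gene scaled to library depth) in at least 3 libraries, and 28 of these were collagen chains. Among them, 33 were past that level in all 10 libraries and 1, Col6a6, passed through the LC libraries alone, so a difference in Col6a6 was a condition of its being tested. Col4a3 passed through RF and LC, with 0 AL libraries past that level, so its difference from AL was in part such a condition too. The other 17 never exceeded 16 counts in a library. They were Col2a1, Col4a6, Col6a4, Col6a5, Col8a1, Col8a2, Col9a1, Col9a2, Col10a1, Col11a1, Col17a1, Col19a1, Col22a1, Col23a1, Col28a1, Lox and Timp1, of which 10 had fewer than 10 counts over all libraries together and Col19a1 had none. Lox, the enzyme that cross-links collagen and elastin, had 13 counts at RF, 21 at LC and 7 at AL over the libraries of each group. Timp1, the inhibitor known to rise in liver fibrosis, had 8, 10 and 11 counts in the same order, so neither could be compared at this depth. The tissue label held against its markers: the summed level of 10 hepatocyte genes was 83500 to 90800 CPM at RF, 64500 to 73900 CPM at LC and 90300 to 108000 CPM at AL. In whole liver, fewer cells of a type and less RNA per cell cannot be told apart.

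At RF against LC, 10 of the 39 genes tested (25.6%) were higher, against 11.4% of all 12789 genes tested, and 2, or 5.13%, were lower, against 10.7% of all genes. The 10 were Col1a1, Col3a1, Col4a1, Col4a2, Col14a1, Bgn, Dcn, Sparc, Nid1 and Timp2, and the 2 were Col4a5 and Col6a6. Between LC and AL, 7 genes (17.9%) were higher at LC, against 16.0% of all genes, and 4 (10.3%) were lower, against 15.6%, so the first share lay near the background and the second below it. Those higher were Col24a1, Col27a1, Col4a3, Col4a5, Col6a6, Col13a1 and Hspg2, and those lower were Col1a1, Col14a1, Sparc and Fn1. Without Col6a6, which passed the filter through LC alone, 1 of 38 genes (2.63%) was lower at RF than at LC and 6 of 38 (15.8%) were higher at LC than at AL. Those 6 still include Col4a3, which passed through RF and LC and not AL. No gene of the set was called between RF and AL, where 0.0547% of all genes were called, 0.0156% higher and 0.0391% lower. A gene was called when its adjusted p (Benjamini-Hochberg, across the whole table of tested genes, edgeR's quasi-likelihood test) was below 0.05. The first comparison and the second share the LC libraries, so a gene that is low in those 4 libraries tends to appear in both, and their values are given side by side below.

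Median log2 fold changes of the 39 genes were 0.18 at RF against LC, 0.15 at LC against AL and 0.29 at RF against AL, where those of all genes were −0.02, 0.05 and 0.01. The median at LC against AL changed sign, to −0.17, once trends on length and GC were removed. There 17 estimates were then positive and 22 negative, against 21 and 18 without removal. At RF against LC the median was 0.245 with the trends removed. At RF against AL 32 of the 39 estimates were positive and 7 negative (25 and 14 once trends on length and GC were removed). There 13 genes (33.3%) had every RF library above every AL library, against 9.38% of all genes. In 0 every RF library lay below, against 9.56%. Every LC library lay above every AL library for 9 of the 39 (23.1%), against 18.7% of all genes. The 13 at RF against AL were Col3a1, Col24a1, Col27a1, Col4a2, Col4a3, Col4a4, Col6a1, Col14a1, Col13a1, Dcn, Hspg2, Sparc and Nid1. Col4a3 is in the 13 and in the 9 at LC against AL, and passed the filter without any AL library. The smallest adjusted p of the 39 at RF against AL was 0.257, and 15 of the 39 genes had an unadjusted p below 0.05, as did 10.8% of all genes. DESeq2 and limma voom also called 0 of the 39.

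**Figure D1:**
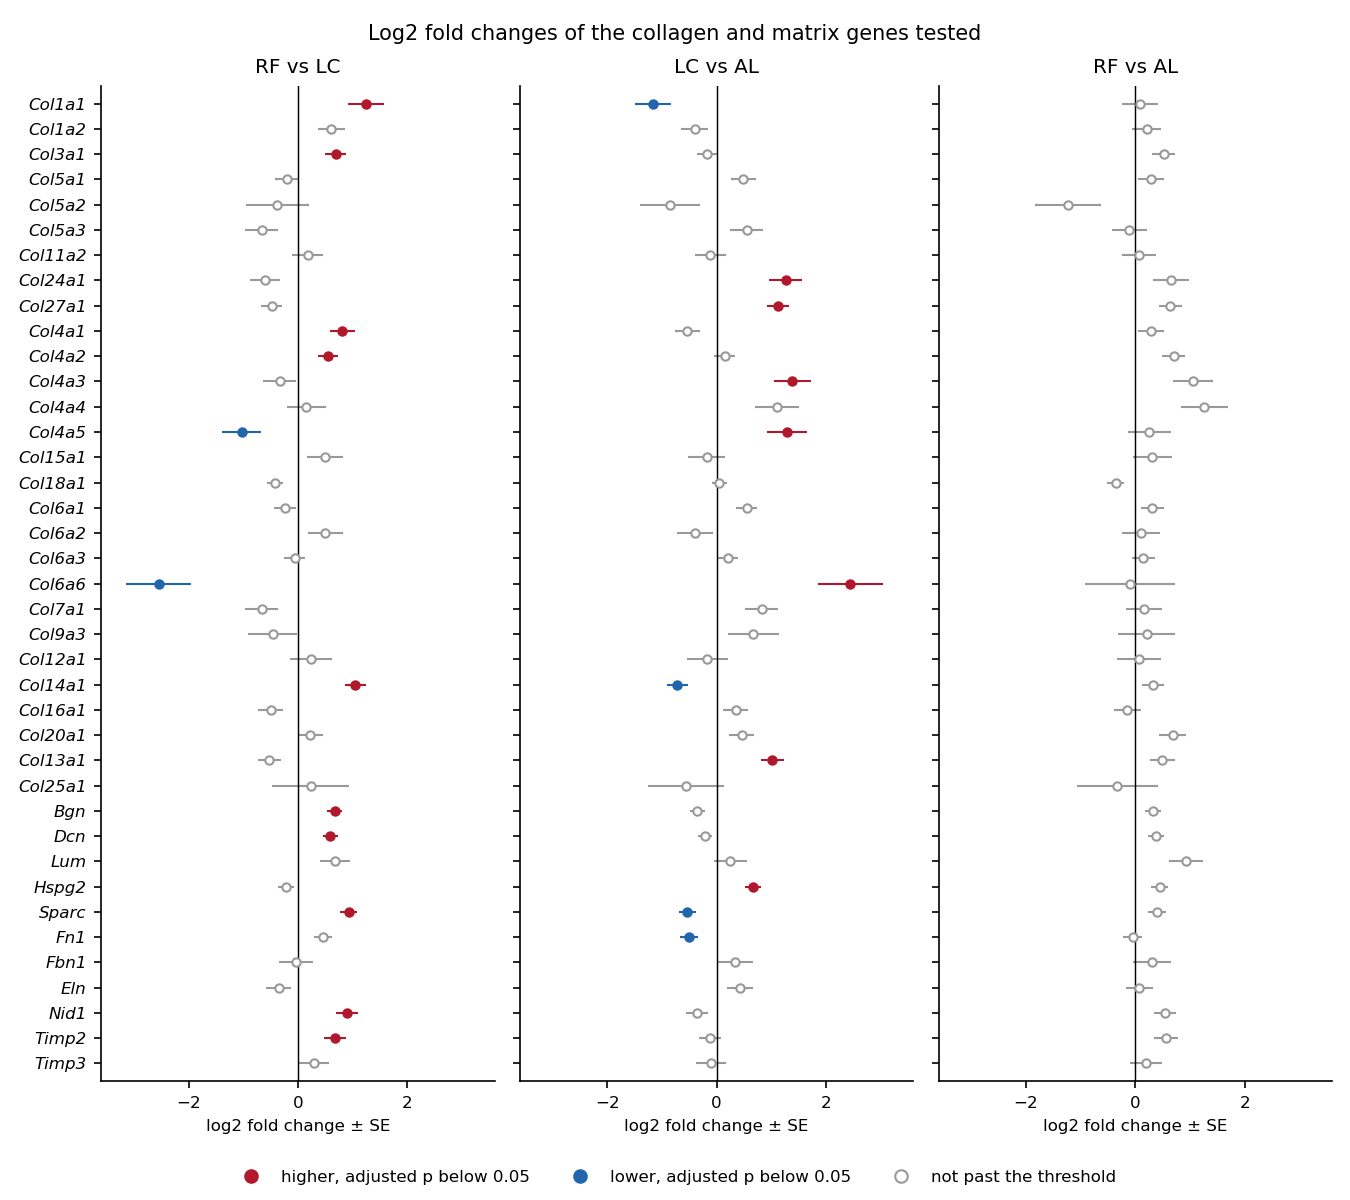
Log2 fold change with its standard error for each of the 39 genes tested, in the comparisons RF with LC (left), LC with AL (middle) and RF with AL (right). Red points are called higher and blue points lower in the group named first, and open grey points are not past the threshold. The left panel has 10 red points and 2 blue, the middle panel 7 red and 4 blue, and the right panel has grey points only.

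Promoter sequence is shown for 6 of the genes that carried these differences, so that genes that moved together can be read side by side. RefSeq windows of the assembly GRCm38.p6, which is not the build of the count table, matched 43 of the 56 genes and 29 of the 39 tested, in 31 windows. Over the 250 bases before the start, on either strand, the GC box GGGCGG was present in 20 of 31 windows (64.5%), against 32.7% of all 32851 windows. CCAAT was present in 35.5% of the 31 windows and in 33.8% of all windows, and TATAAA in 9.68% and in 12.4%. Such matches describe letters and are not sites of binding. The 6 are 3 genes higher at LC than at AL and 3 higher at RF than at LC, over upstream bases outside annotated exons, 5′ to 3′ on the strand of the gene, with TATAAA and also CCAAT and also GGGCGG or their reverse complements in capitals. Those higher at LC are Col27a1 (chr4:63215162-63215411, plus strand), Hspg2 (chr4:137468553-137468768, plus strand) and Col13a1 (chr10:61979109-61979358, minus strand), and those higher at RF are Col3a1 (chr1:45311288-45311537, plus strand), Nid1 (chr13:13437352-13437550, plus strand) and Bgn (chrX:73483351-73483600, plus strand).
Col27a1: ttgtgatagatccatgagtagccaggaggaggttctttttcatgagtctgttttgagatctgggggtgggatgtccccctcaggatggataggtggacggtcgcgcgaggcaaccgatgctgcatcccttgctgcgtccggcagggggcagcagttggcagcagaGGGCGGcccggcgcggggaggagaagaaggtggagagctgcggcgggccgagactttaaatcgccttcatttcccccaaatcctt
Hspg2: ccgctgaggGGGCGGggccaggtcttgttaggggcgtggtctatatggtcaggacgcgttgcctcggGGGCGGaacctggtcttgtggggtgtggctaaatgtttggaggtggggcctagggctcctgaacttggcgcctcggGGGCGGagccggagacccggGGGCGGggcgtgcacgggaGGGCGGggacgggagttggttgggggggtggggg
Col13a1: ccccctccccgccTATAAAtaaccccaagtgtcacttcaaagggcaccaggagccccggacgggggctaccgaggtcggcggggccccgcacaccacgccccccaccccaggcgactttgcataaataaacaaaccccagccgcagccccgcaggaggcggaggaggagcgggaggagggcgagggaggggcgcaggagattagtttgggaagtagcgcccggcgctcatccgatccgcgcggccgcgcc
Col3a1: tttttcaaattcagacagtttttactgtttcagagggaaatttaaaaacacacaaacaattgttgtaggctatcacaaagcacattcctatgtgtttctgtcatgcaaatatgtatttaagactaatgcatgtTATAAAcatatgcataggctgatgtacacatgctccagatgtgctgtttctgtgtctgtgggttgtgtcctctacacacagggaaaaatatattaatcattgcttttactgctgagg
Nid1: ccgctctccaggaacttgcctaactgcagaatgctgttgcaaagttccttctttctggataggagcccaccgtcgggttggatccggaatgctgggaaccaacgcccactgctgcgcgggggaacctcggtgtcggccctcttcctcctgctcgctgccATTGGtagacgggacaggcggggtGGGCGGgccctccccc
Bgn: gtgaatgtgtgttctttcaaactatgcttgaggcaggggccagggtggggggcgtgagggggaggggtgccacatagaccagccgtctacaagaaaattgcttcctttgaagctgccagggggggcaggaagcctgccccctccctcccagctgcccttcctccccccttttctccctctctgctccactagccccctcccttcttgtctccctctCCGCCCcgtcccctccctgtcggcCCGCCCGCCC
The perlecan gene Hspg2 held 5 GC boxes, Col27a1 had a single GC box, and Bgn had 3 GC boxes on the other strand, of which the last overlapped its neighbour. Nid1 held a CCAAT on the other strand and a GC box, while Col3a1 and Col13a1 had TATAAA and no GC box, and matches of different motifs did not overlap. No motif set the 3 genes of the first kind apart from the 3 of the second. Col4a1 and Col4a2, which are transcribed in opposite directions from a shared start region, had windows that shared 78 bases.

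Levels of different genes were compared per transcript length, in fragments per kilobase of transcript, scaled to depth by the authors (FPKM). Col18a1 led the set at a mean of 160.9 FPKM over the 10 libraries, followed by Fn1 at 99.8, Dcn at 63.0, Col27a1 at 41.1, Col5a3 at 32.9, Bgn at 23.9 and Sparc at 14.8 FPKM. All 32 others lay below 10 FPKM, down to Col6a6 at 0.078 FPKM. The chains of the main interstitial fibrils were low, with Col3a1 at 4.10, Col1a2 at 1.64 and Col1a1 at 0.484 FPKM. Summed over all collagen chains, the level was 221.8 ± 18.6 FPKM at RF (SD, n = 3), 328.7 ± 31.5 FPKM at LC (n = 4) and 223.8 ± 25.5 FPKM at AL (n = 3), and LC libraries lay above all others. Col18a1 made up 56.4% of that sum at RF, 59.4% at LC and 67.4% at AL, Col27a1 17.3%, 17.4% and 10.3%, and Col5a3 11.3%, 13.5% and 10.9%. Col1a1, Col1a2 and Col3a1 together made up 3.53%, 1.69% and 2.48%. Deposited FPKM values carry no TMM factor, and the sums follow the few most abundant chains. Divided by those factors, an alternative chosen after seeing the data, the sum was 208.1 to 242.5 FPKM at RF, 245.8 to 318.5 FPKM at LC and 225.0 to 265.8 FPKM at AL, so that LC and AL overlapped.

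**Figure D2:**
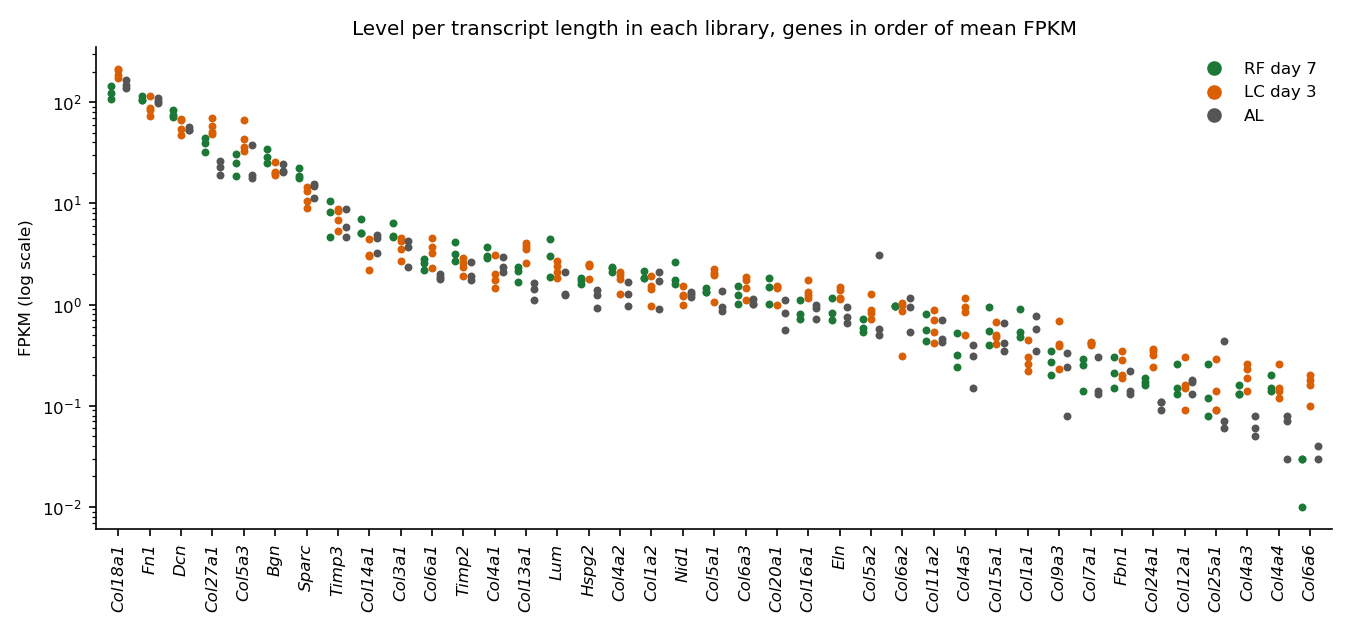
FPKM on a log scale in each library for the 39 genes tested, in order of mean FPKM, with RF, LC and AL points side by side from left to right. Col18a1 and Fn1 stand at the left, above or near 100 FPKM, and Col4a3, Col4a4 and Col6a6 at the right below 1 FPKM; 1 value at 0 (Col6a6) is not drawn.

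Among the fibrillar collagens, which form the cross-striated fibrils of interstitial matrix, Col1a1 and Col3a1 were higher at RF than at LC, Col24a1 and Col27a1 were higher at LC than at AL, and Col1a1 was lower at LC than at AL. Col1a1 (NCBI gene 12842), the alpha 1 chain of type I collagen, had 3.20, 5.26 and 2.81 CPM at RF, 1.51, 2.40, 1.24 and 1.19 CPM at LC, and 3.41, 2.42 and 4.76 CPM at AL. Every RF library and every AL library lay above every LC library, and RF and AL overlapped. The log2 fold change was 1.25 (SE 0.33, adjusted p = 0.017) at RF against LC, and −1.16 (SE 0.33, adjusted p = 0.017) at LC against AL. The first call was lost without RF replicate 2 (0.92, adjusted p = 0.1) and the second without AL replicate 4 (−0.88, adjusted p = 0.1). Its partner Col1a2 had 9.46, 11.0 and 9.37 CPM at RF, 6.66, 8.99, 5.98 and 4.46 CPM at LC, and 11.0, 5.46 and 9.31 CPM at AL, with all RF libraries above all LC libraries, and did not pass at RF against LC (0.61, SE 0.25, adjusted p = 0.095) or LC against AL (−0.40, SE 0.25, adjusted p = 0.24). Col3a1, the single chain of type III collagen, which forms the reticulin fibres of liver, had 26.0, 35.1 and 25.4 CPM at RF, 16.3, 22.5, 19.2 and 13.5 CPM at LC, and 23.7, 15.1 and 21.6 CPM at AL. RF lay above both other groups without overlap, LC and AL overlapped, and the log2 fold change at RF against LC was 0.69 (SE 0.19, adjusted p = 0.023). That call was lost without RF replicate 2 (adjusted p = 0.12), LC replicate 1 (0.059) or LC replicate 4 (0.06).

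Col27a1 and Col24a1 encode minor fibrillar collagens, of which type XXVII is best known from cartilage. Col27a1 (NCBI gene 373864) was the second most abundant collagen per length, with 194, 273 and 239 CPM at RF, 279.7, 354, 252 and 429.9 CPM at LC, and 123, 185 and 145 CPM at AL. All LC libraries lay above all AL libraries, RF lay above AL, and RF and LC overlapped. Its log2 fold change was 1.12 (SE 0.20, adjusted p = 0.0016) at LC against AL and −0.48 (SE 0.20, adjusted p = 0.098) at RF against LC, which did not pass. Col24a1 had 1.35, 1.13 and 1.14 CPM at RF, 1.95, 1.97, 1.94 and 1.51 CPM at LC, and 0.593, 0.936 and 0.759 CPM at AL, so the 3 groups did not overlap at all. Only its difference at LC against AL passed (1.27, SE 0.30, adjusted p = 0.0066), and that at RF against LC was −0.61 (SE 0.28, adjusted p = 0.13). The type V chains, which set fibril diameter, were not called. Col5a3 had 186, 151 and 112 CPM at RF, 344, 198, 165 and 237 CPM at LC, and 234, 127 and 122 CPM at AL, with LC replicate 1 the highest and AL replicate 2 above the other AL libraries. Col5a1 ranged from 7.79 to 17.1 CPM and Col11a2 from 1.82 to 4.15 CPM over all libraries. Col5a2 had 20.6 CPM in AL replicate 2 and 3.48 to 6.97 CPM in the other 9 libraries, and was the single gene of the set in which a library stood over 2-fold above every other.

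Basement membrane collagens line the vessels, ducts and nerves of liver, since the sinusoids lack a full basement membrane. Col4a1 and Col4a2, whose chains form the common type IV network, were higher at RF than at LC, and Col4a3 and Col4a5, of the network known from kidney glomeruli, were higher at LC than at AL. Col4a1 had 18.9, 24.3 and 19.9 CPM at RF, 11.2, 18.5, 9.48 and 8.72 CPM at LC, and 19.6, 16.0 and 16.4 CPM at AL, with RF above LC without overlap and AL overlapping both, and its log2 fold change was 0.81 (SE 0.22, adjusted p = 0.02) at RF against LC and −0.53 (SE 0.22, adjusted p = 0.086) at LC against AL. Col4a2 had 14.7, 15.1 and 13.4 CPM at RF, 10.5, 12.3, 9.37 and 7.34 CPM at LC, and 10.9, 7.18 and 8.55 CPM at AL, with RF above both other groups and LC and AL overlapping. Its log2 fold change at RF against LC was 0.55 (SE 0.19, adjusted p = 0.049). The call of Col4a1 was lost without RF replicate 2 (adjusted p = 0.088), LC replicate 1 (0.052), LC replicate 3 (0.051) or LC replicate 4 (0.051). For Col4a2 omitting any single RF library, LC replicates 1, 3 or 4, or AL replicates 3 or 4 ended the call, at adjusted p of 0.05 to 0.14.

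Col4a3 (NCBI gene 12828) was a low-count gene with 1.42, 1.13 and 1.14 CPM at RF, 1.70, 2.03, 1.35 and 1.13 CPM at LC, and 0.519, 0.546 and 0.690 CPM at AL. Every LC and every RF library lay above every AL library, and the log2 fold change at LC against AL was 1.39 (SE 0.34, adjusted p = 0.0082). No AL library was past the filter level, so the gene was tested through RF and LC. Col4a3 lost the call with a replicate block and length and GC trends removed together (1.07, adjusted p = 0.055). Its head-to-head neighbour Col4a4 had 1.35, 1.40 and 1.87 CPM at RF, 2.07, 1.05, 1.13 and 1.32 CPM at LC, and 0.297, 0.936 and 0.690 CPM at AL, again with LC and RF above AL, and missed the threshold at LC against AL (1.11, SE 0.41, adjusted p = 0.051). Col4a5 had 1.49, 3.40 and 2.01 CPM at RF, 6.22, 5.42, 4.42 and 2.82 CPM at LC, and 2.60, 1.09 and 2.07 CPM at AL. All LC libraries lay above all AL libraries, RF overlapped both, and the log2 fold change was 1.29 (SE 0.36, adjusted p = 0.016) at LC against AL and −1.03 (SE 0.35, adjusted p = 0.049) at RF against LC. The first of these calls was lost without AL replicate 3 (1.01, adjusted p = 0.085). The second was lost on omitting RF replicates 1 or 3, LC replicates 1, 2 or 3, or AL replicate 4 (0.062 to 0.16), and with length and GC trends removed (−0.95, adjusted p = 0.056). Col4a6 stayed below the filter with 13 counts at RF, 34 at LC and 3 at AL in all.

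Col18a1, the most abundant collagen here, encodes a heparan sulfate collagen of basement membranes whose end fragment is endostatin and which hepatocytes are known to make. It had 563, 643 and 759 CPM at RF, 925, 981, 739 and 847 CPM at LC, and 868, 902 and 756 CPM at AL. LC replicates 1 and 2 were the highest, RF replicate 1 the lowest, and no pair of groups was separate. It was not called at RF against LC (−0.41, SE 0.15, adjusted p = 0.058), nor at LC against AL (0.05, SE 0.15, adjusted p = 0.81) or RF against AL (−0.36, SE 0.16, adjusted p = 0.43). Its relative Col15a1 ranged from 1.82 to 4.99 CPM with all groups overlapping.

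Type VI collagen forms beaded filaments around cells. Its common chains did not pass in any comparison. Col6a1 had 8.53, 10.9 and 9.90 CPM at RF, 14.8, 12.9, 10.2 and 8.10 CPM at LC, and 7.86, 8.51 and 7.24 CPM at AL, and at LC against AL the log2 fold change was 0.55 (SE 0.20, adjusted p = 0.051). Col6a2 had 3.70, 3.73 and 3.81 CPM at RF, 2.70, 3.45, 3.29 and 1.13 CPM at LC, and 4.38, 2.34 and 3.72 CPM at AL, and Col6a3 had 10.7, 8.85 and 13.6 CPM at RF, 12.6, 14.4, 10.2 and 8.72 CPM at LC, and 10.4, 10.2 and 9.31 CPM at AL. LC replicate 4 was the lowest LC library for all 3 chains. Col6a6, an alternative chain that can take the place of the third common chain, had 0.213, 0.200 and 0.0669 CPM at RF, 1.07, 0.616, 1.18 and 1.00 CPM at LC, and 0.297, 0 and 0.207 CPM at AL. These are 1 to 3 counts a library at RF, 10 to 22 at LC and 0 to 4 at AL, with all 4 LC libraries above all others, and the log2 fold change was −2.55 (SE 0.59, adjusted p = 0.0096) at RF against LC and 2.45 (SE 0.60, adjusted p = 0.0079) at LC against AL. The first call was lost without RF replicate 3 (adjusted p = 0.05). Col7a1, the collagen of anchoring fibrils, had 2.70, 1.33 and 2.34 CPM at RF, 3.14, 3.63, 3.18 and 3.51 CPM at LC, and 2.82, 1.56 and 1.31 CPM at AL, with LC above both other groups, and was not called at LC against AL (0.83, SE 0.30, adjusted p = 0.053).

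Fibril-associated collagens sit on the surface of fibrils. Col14a1 (NCBI gene 12818), which binds decorin on type I fibrils, had the smallest p of the collagens at RF against LC. It had 32.4, 44.1 and 32.4 CPM at RF, 16.8, 17.7, 23.2 and 12.6 CPM at LC, and 31.8, 23.9 and 31.0 CPM at AL. RF was highest, AL in the middle and LC lowest, with no overlap between any of the 3 groups, and log2 fold changes were 1.05 (SE 0.19, adjusted p = 0.0028) at RF against LC and −0.72 (SE 0.19, adjusted p = 0.013) at LC against AL. The second call was lost without AL replicate 4 (−0.67, adjusted p = 0.05), and the first held without each library in turn. Col12a1, Col16a1, Col20a1 and Col9a3 were at 0.234 to 8.92 CPM and were not called. Of the transmembrane collagens, Col13a1, known from the neuromuscular junction, had 5.26, 6.32 and 7.16 CPM at RF, 8.92, 6.96, 9.48 and 10.7 CPM at LC, and 3.26, 4.92 and 5.10 CPM at AL. LC and RF lay above AL without overlap, LC replicate 2 lay below RF replicate 3, and the log2 fold change was 1.02 (SE 0.22, adjusted p = 0.0036) at LC against AL and −0.53 (SE 0.21, adjusted p = 0.084) at RF against LC. Col25a1 had 3.34 CPM in AL replicate 2 and 0.483 to 1.97 CPM elsewhere.

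**Figure D3:**
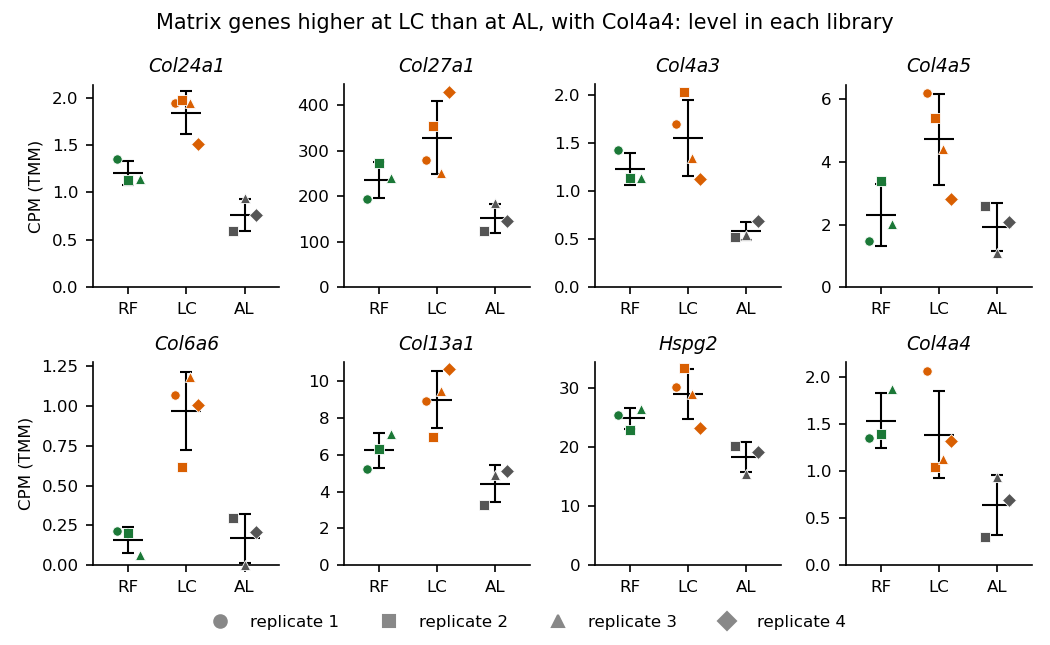
CPM in each library of the 7 genes higher at LC than at AL, and of Col4a4, with RF, LC and AL from left to right, the marker shape giving the replicate and bars the mean and SD. In each of the 8 panels all LC points lie above all AL points.

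Bgn and Dcn, the small leucine-rich proteoglycans biglycan and decorin that bind collagen fibrils and growth factors, were both higher at RF than at LC. Bgn (NCBI gene 12111) had 56.5, 77.8 and 64.7 CPM at RF, 36.2, 42.2, 47.0 and 40.7 CPM at LC, and 46.3, 54.3 and 58.3 CPM at AL. RF lay above LC without overlap, AL overlapped both, and the log2 fold change was 0.68 (SE 0.14, adjusted p = 0.0052) at RF against LC and −0.35 (SE 0.14, adjusted p = 0.07) at LC against AL. Dcn (NCBI gene 13179) had 119, 138 and 123 CPM at RF, 92.6, 80.6, 91.8 and 70.8 CPM at LC, and 87.7, 111 and 93.0 CPM at AL, with RF above both other groups, and log2 fold changes of 0.59 (SE 0.13, adjusted p = 0.0078) at RF against LC and −0.21 (SE 0.13, adjusted p = 0.25) at LC against AL. Lum, which encodes lumican, had 3.56, 8.46 and 5.75 CPM at RF, 2.89, 4.19, 4.15 and 3.58 CPM at LC, and 2.37, 2.81 and 4.14 CPM at AL, with RF replicate 2 the highest, and was not called (0.68, SE 0.28, adjusted p = 0.1). Hspg2, the large basement membrane proteoglycan perlecan, was higher at LC than at AL, with 25.4, 22.9 and 26.4 CPM at RF, 30.1, 33.4, 28.9 and 23.2 CPM at LC, and 20.2, 15.4 and 19.2 CPM at AL. All LC and all RF libraries lay above all AL libraries, and the log2 fold change was 0.66 (SE 0.15, adjusted p = 0.0051) at LC against AL and −0.22 (SE 0.14, adjusted p = 0.3) at RF against LC. With trends on transcript length and GC content removed, the estimate at LC against AL was 0.12 (adjusted p = 0.53).

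Sparc, a collagen-binding glycoprotein also called osteonectin, had the smallest p of the set at RF against LC. It had 44.2, 55.5 and 45.8 CPM at RF, 21.9, 29.9, 29.7 and 20.1 CPM at LC, and 37.0, 32.7 and 40.6 CPM at AL. RF was highest, AL in the middle and LC lowest with no overlap between the groups, and log2 fold changes were 0.93 (SE 0.16, adjusted p = 0.002) at RF against LC and −0.53 (SE 0.16, adjusted p = 0.021) at LC against AL. The second call was lost without AL replicate 4 (adjusted p = 0.091), LC replicate 1 (0.058) or LC replicate 4 (0.056). Nid1, the linker of laminin and type IV collagen, had 9.60, 15.9 and 10.4 CPM at RF, 6.09, 6.77, 7.43 and 5.33 CPM at LC, and 7.71, 8.43 and 8.48 CPM at AL. Its 3 groups did not overlap either, RF being highest and LC lowest, and log2 fold changes were 0.90 (SE 0.19, adjusted p = 0.0064) at RF against LC and −0.36 (SE 0.20, adjusted p = 0.19) at LC against AL, which did not pass. Fn1 encodes fibronectin, which hepatocytes secrete into plasma, and had 821, 818 and 879 CPM at RF, 481, 821, 557 and 589 CPM at LC, and 776, 932 and 894 CPM at AL. LC replicate 2 was at the level of RF replicate 1 and the 3 other LC libraries were the lowest of all 10. Log2 fold changes were −0.50 (SE 0.17, adjusted p = 0.033) at LC against AL and 0.46 (SE 0.17, adjusted p = 0.064) at RF against LC. The call was lost on omitting LC replicates 1, 3 or 4 or AL replicates 3 or 4 (adjusted p of 0.068 to 0.12), with a replicate block (0.07), and in a fit of LC and AL alone (0.051). Fbn1, of microfibrils, ranged from 1.47 to 3.14 CPM and Eln, elastin, from 2.63 to 4.58 CPM, and neither was called.

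Of the metalloproteinase inhibitors, Timp2 was higher at RF than at LC. It had 9.39, 14.5 and 11.1 CPM at RF, 8.42, 7.51, 7.32 and 6.03 CPM at LC, and 6.23, 7.73 and 9.79 CPM at AL, with RF above LC without overlap, and its log2 fold change was 0.67 (SE 0.20, adjusted p = 0.027) at RF against LC and −0.11 (SE 0.20, adjusted p = 0.69) at LC against AL. The call was lost without RF replicate 2 (adjusted p = 0.15), RF replicate 3 (0.064), LC replicate 3 (0.051) or LC replicate 4 (0.07). Timp3, the inhibitor bound to matrix, had 21.5, 48.1 and 38.0 CPM at RF, 20.5, 35.0, 33.3 and 28.1 CPM at LC, and 40.6, 24.7 and 28.3 CPM at AL, with the groups overlapping, and was not called (0.30, SE 0.27, adjusted p = 0.47).

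**Figure D4:**
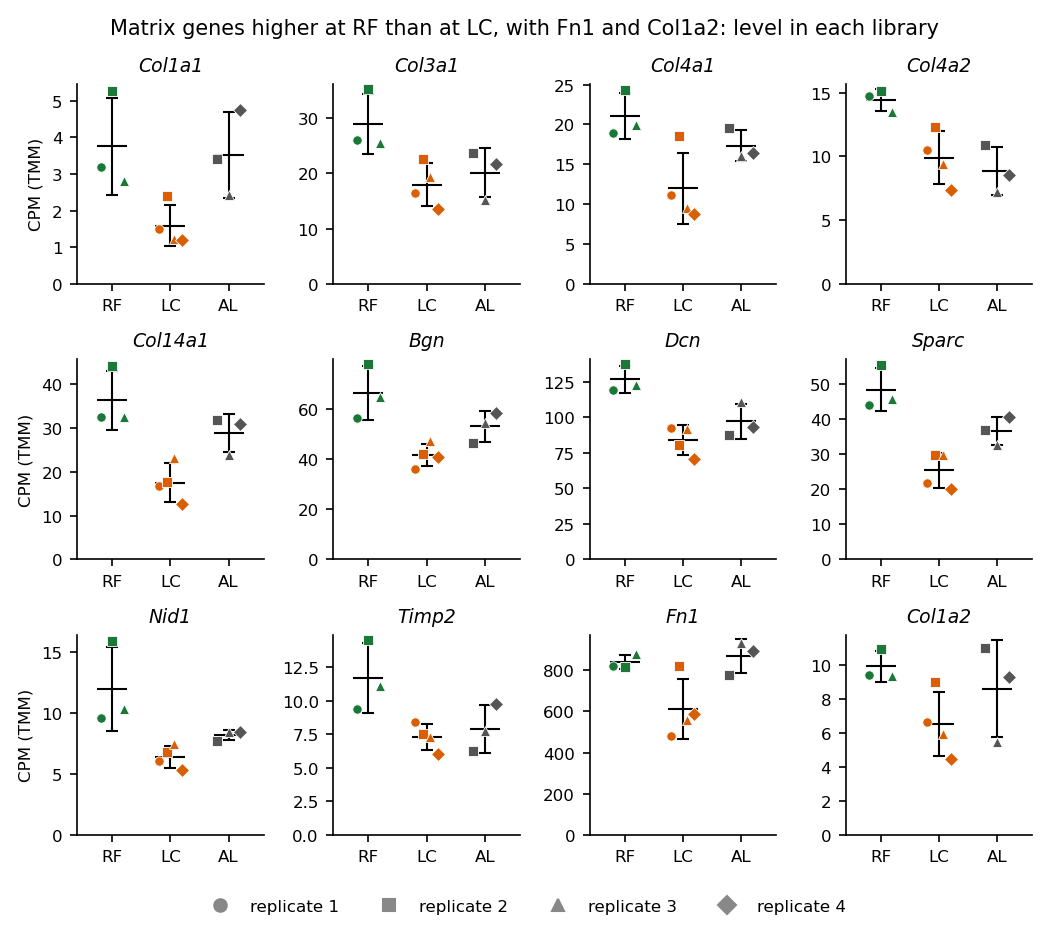
CPM in each library of the 10 genes higher at RF than at LC, and of Fn1 and Col1a2, which were not called, with RF, LC and AL from left to right, the marker shape giving the replicate and bars the mean and SD. Of the 12 genes, all but Fn1 have every RF point above every LC point, and RF replicate 2 (square) is the highest RF point of each called gene.

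Within groups, the same libraries were often the highest or the lowest. RF replicate 2 was the highest RF library for all 10 genes higher at RF than at LC and for 56.4% of the 39 genes, against 35.3% of all genes tested. LC replicate 2 was the highest LC library for 61.5% of the 39, against 29.2% of all genes, and LC replicate 4 the lowest for 53.8%, against 24.2%, and for 9 of the 10. Without RF replicate 2, 5 of the 39 genes were higher at RF than at LC, and without LC replicate 4, 6. The whole table fell too, from 1452 of 12789 genes higher to 792 of 12961 and 1189 of 12758. Col14a1, Bgn, Sparc and Nid1 were called without each library in turn and under every other setting tried, as were Col24a1 and Col13a1 at LC against AL. Col6a6 also was, but is no support, since its level at LC was the condition of its being tested. Scaling bore on direction: when libraries were scaled by their totals and not by TMM, the median over all genes was −0.22 at RF against LC, and 5 genes of the set were then higher and 7 lower. The median at LC against AL was 0.36, and 15 were higher and 0 lower. Of all 12789 genes, 673 were then higher and 2724 lower in the first comparison, and 4395 and 686 in the second.

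Markers of the cells that make matrix moved in part with these genes. The marker lists, and the lists of related genes below, were chosen with earlier results of these data known. Their shares beside all genes are descriptive and are no test. The summed level of 15 stellate cell markers was 396 to 459 CPM at RF, 276 to 355 CPM at LC and 342 to 363 CPM at AL, with RF above both other groups. Of these markers, 5 of 15 were called higher at RF than at LC (Steap4, Rgs5, Colec11, Ngfr and Lrat) and 0 lower, or 33.3% and 0, against 11.4% and 10.7% of all genes, while Reln, Des and Pdgfrb did not pass. The list median was 0.14 at RF against LC and 0.03 at LC against AL, where those of all genes were −0.02 and 0.05. At LC against AL 1 of the 15 was higher and 1 lower (6.67% each, against 16.0% and 15.6% of all genes). At RF against LC Ngfr lost its call without RF replicates 1 or 2 (0.098 and 0.061). Lrat, which stores retinol in quiescent stellate cells, was at 15.7 ± 0.208 CPM at RF, 10.2 ± 2.97 CPM at LC and 12.0 ± 1.16 CPM at AL, or 0.62 (SE 0.20, adjusted p = 0.038) on the log2 scale at RF against LC, a call lost without LC replicate 1 or 4 or any single RF library (0.063 to 0.096). Steap4 fell at LC against AL (−1.34, SE 0.17, adjusted p = 0.00025) and Hand2 rose (0.52, SE 0.18, adjusted p = 0.038), and for Hand2 omitting RF replicates 2 or 3, LC replicates 1, 3 or 4, or any single AL library ended the call (0.051 to 0.11), as did a replicate block (0.06) and trend removal (0.14). Markers of activated stellate cells and myofibroblasts summed to 176 to 274 CPM at RF, 178 to 197 CPM at LC and 214 to 254 CPM at AL. Acta2, the actin of myofibroblasts, was at 3.70 ± 2.16 CPM at RF, 2.50 ± 0.812 CPM at LC and 3.09 ± 1.76 CPM at AL and was not called. Of the 10 tested, 2 were higher at RF than at LC (20.0%, against 11.4% of all genes) and 0 lower: Lgals1, galectin-1 (0.75, SE 0.15, adjusted p = 0.0046), and Vim, vimentin (0.71, SE 0.22, adjusted p = 0.033). The call of Vim was lost on omitting RF replicates 2 or 3 or LC replicates 1, 2 or 4 (0.051 to 0.17), and with length and GC trends removed (0.059). Lgals1 and Tpm2 were lower at LC than at AL and also at RF than at AL (−1.03, SE 0.16, adjusted p = 0.034 and −1.27, SE 0.21, adjusted p = 0.043). They are 2 of 10 in each comparison (20.0%, against 15.6% of all genes at LC and 0.0391% at RF), with 0 higher. The other 8 were not called, and the list median was −0.18 at LC against AL and 0.29 at RF against AL. At RF against AL the call of Lgals1 ended on omitting any single RF library, LC replicates 3 or 4, or AL replicates 3 or 4 (0.056 to 0.19). That of Tpm2 ended on omitting RF replicates 1 or 2, LC replicates 1, 3 or 4, or AL replicates 3 or 4 (0.051 to 0.22).

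Other cell types gave these values. Portal fibroblast and mesothelial markers summed to 10.7 to 22.5 CPM at RF, 10.5 to 16.7 CPM at LC and 11.2 to 16.1 CPM at AL, with 0 of 7 tested called by edgeR, DESeq2 or voom at RF against LC or LC against AL, and 0 at an unadjusted p below 0.05. Smooth muscle markers summed to 10.1 to 14.5, 6.59 to 12.1 and 9.75 to 12.4 CPM in the same order, and none of these tools called any of the 4 in those comparisons, 0 of which had an unadjusted p below 0.05. Of all genes, edgeR called 22.1% at RF against LC and 31.5% at LC against AL. An unadjusted p below 0.05 was found for 36.0% and 43.0% of all genes. Sinusoidal endothelial markers summed to 362 to 430 CPM at RF, 397 to 419 CPM at LC and 277 to 292 CPM at AL. Of 14, 5 (35.7%, against 16.0% of all genes) were higher at LC than at AL. They were the scavenger receptors Stab2 (0.95, SE 0.13, adjusted p = 0.00037) and Stab1 (0.84, SE 0.14, adjusted p = 0.0012), and Kdr, Bmp2 and Oit3. At RF against LC 3 were higher (Gpr182, Dnase1l3 and Clec4g) and 2 lower (Stab1 and Stab2), or 21.4% and 14.3%, against 11.4% and 10.7%. Gpr182 lost that call without RF replicates 2 or 3 (0.053 to 0.054) and Stab2 without RF replicate 1 (0.071). Dnase1l3 lost it without RF replicates 2 or 3 or LC replicates 1 or 2 (0.06 to 0.14). Clec4g lost it without any single RF library, LC replicates 2, 3 or 4, or AL replicate 3 (0.051 to 0.12). Stab1 lost it with trends removed. Cholangiocyte markers summed to 79.4 to 125, 76.8 to 97.6 and 57.4 to 97.3 CPM. Epcam alone of 5 cholangiocyte markers was called, higher at LC against AL (0.95, SE 0.28, adjusted p = 0.021), or 20.0%, against 16.0% of all genes. That call was lost without AL replicates 2 or 3 (0.072 and 0.1). Macrophage markers summed to 197 to 282 CPM at RF, 145 to 257 CPM at LC and 182 to 276 CPM at AL. Of 14, 3 were higher and 0 lower at RF than at LC (21.4%, against 11.4% of all genes), with a list median of 0.49. They were the lysozyme gene Lyz2 (1.29, SE 0.33, adjusted p = 0.017), Mpeg1 (0.75, SE 0.20, adjusted p = 0.018) and Ctss, cathepsin S (0.87, SE 0.25, adjusted p = 0.023). Mpeg1 lost its call without RF replicate 2 (0.067), Lyz2 without RF replicates 2 or 3 (0.073 and 0.05), and Ctss without RF replicates 2 or 3 or LC replicates 1 or 4 (0.059 to 0.12). Between LC and AL, 3 of 14 were lower at LC and 0 higher (21.4%, against 15.6%), with a list median of −0.58: Mpeg1 (−1.03, SE 0.20, adjusted p = 0.0024), Lyz2 (−1.42, SE 0.33, adjusted p = 0.0075) and the complement gene C1qb (−0.85, SE 0.28, adjusted p = 0.036). C1qb lost its call on omitting LC replicates 1, 2 or 4 or AL replicates 3 or 4 (0.051 to 0.16). The called macrophage markers went the way of the matrix genes called higher at RF or lower at LC, and opposite to the 7 higher at LC than at AL. Of 10 hepatocyte markers, 2 were higher at RF than at LC (Cps1 and Alb) and 4 lower at LC than at AL (Alb, Apoa1, Ttr and Cps1), or 20.0% and 40.0%, against 11.4% and 15.6%. Of these calls Cps1 in the first comparison, and Alb and Apoa1 in the second, held without each library in turn. No marker gene was at 0 in every library of a group. The part of cell makeup in the matrix genes' differences was not tested.

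Genes that fold and cross-link collagen were called about as often as all genes, or less. Of 29 tested, 4 were higher and 2 lower at RF than at LC (13.8% and 6.9%, against 11.4% and 10.7% of all genes), and 3 were higher and 4 lower at LC than at AL (10.3% and 13.8%, against 16.0% and 15.6%). Serpinh1, the collagen-specific chaperone HSP47, was at 18.2 ± 4.27 CPM at RF, 9.35 ± 1.33 CPM at LC and 15.6 ± 4.55 CPM at AL, with log2 fold changes of 0.96 (SE 0.21, adjusted p = 0.0067) at RF against LC and −0.73 (SE 0.21, adjusted p = 0.018) at LC against AL. Its second call was lost without AL replicate 2 (0.087) and by voom (0.071). Pcolce, an enhancer of procollagen trimming, was higher at RF than at LC (0.76, SE 0.21, adjusted p = 0.02), a call lost without LC replicate 1 or any single RF library (0.053 to 0.061). Mia3, which helps load procollagen into transport vesicles, was lower (−0.69, SE 0.14, adjusted p = 0.0051). P4hb, a subunit of prolyl hydroxylase that is also protein disulfide isomerase, fell at LC against AL (−0.80, SE 0.14, adjusted p = 0.0013), as did Ppib, a prolyl isomerase (−0.53, SE 0.13, adjusted p = 0.0074). The collagen galactosyltransferase Colgalt1 rose (0.49, SE 0.14, adjusted p = 0.016) but not without AL replicate 3 (0.057) or with trends removed (0.074). The median of the list was 0.10 at RF against LC and 0.15 at LC against AL.

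Of 17 laminins and other basement membrane genes tested, 6 were higher and 0 lower at LC than at AL (35.3% and 0, against 16.0% and 15.6% of all genes), with a list median of 0.55 against 0.05 for all genes, and 0 were higher and 3 lower at RF than at LC (0 and 17.6%, against 11.4% and 10.7%). Lama5, a laminin chain, was at 9.45 ± 1.62 CPM at RF, 16.5 ± 1.01 CPM at LC and 6.56 ± 1.20 CPM at AL, with log2 fold changes of −0.80 (SE 0.16, adjusted p = 0.0051) at RF against LC and 1.32 (SE 0.17, adjusted p = 0.0003) at LC against AL. Agrn, the heparan sulfate proteoglycan agrin, was at 83.2 ± 9.21 CPM at RF, 153 ± 22.8 CPM at LC and 72.5 ± 11.6 CPM at AL, and its log2 fold changes were −0.88 (SE 0.15, adjusted p = 0.0022) and 1.08 (SE 0.15, adjusted p = 0.00046). Pxdn, the peroxidase that cross-links type IV collagen, rose at LC against AL (0.85, SE 0.17, adjusted p = 0.0027). Lamc3 fell at RF against LC (−0.75, SE 0.25, adjusted p = 0.043), which no longer passed on omitting RF replicates 1 or 3, any single LC library, or AL replicate 3 (0.052 to 0.16), with a replicate block (−0.68, 0.051) or with trends removed (−0.51, 0.15).

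Of 17 other proteoglycans tested, 7 were higher and 0 lower at RF than at LC (41.2% and 0, against 11.4% and 10.7% of all genes), with a list median of 0.49. Between LC and AL, 1 was higher at LC and 6 lower (5.88% and 35.3%, against 16.0% and 15.6%), with a list median of −0.56. Prelp, a small leucine-rich protein that binds perlecan and collagen, was at 19.2 ± 1.95 CPM at RF, 7.47 ± 1.93 CPM at LC and 13.5 ± 2.94 CPM at AL, with log2 fold changes of 1.35 (SE 0.20, adjusted p = 0.001) at RF against LC and −0.84 (SE 0.20, adjusted p = 0.0073) at LC against AL. Prg4, lubricin, was at 34.4 ± 10.5 CPM at RF, 14.1 ± 3.89 CPM at LC and 46.7 ± 7.20 CPM at AL, with 1.29 (SE 0.24, adjusted p = 0.0044) and −1.73 (SE 0.24, adjusted p = 0.0006). The low-count gene Chad, chondroadherin, was higher at RF than at LC (1.80, SE 0.39, adjusted p = 0.0066), and Gpc4, a glypican, was lower at LC than at AL (−0.56, SE 0.13, adjusted p = 0.0076), though not without AL replicate 3 (0.052). In the list of elastic fibre and other glycoprotein genes, 3 of 35 were higher and 1 lower at RF than at LC, and 3 higher and 1 lower at LC than at AL. These are 8.57% and 2.86% in each comparison, below the shares of all genes. Igfbp7 was higher at RF than at LC (1.08, SE 0.18, adjusted p = 0.0018) and lower at LC than at AL (−0.55, SE 0.18, adjusted p = 0.032). Its second call was lost on omitting LC replicates 2 or 4 or AL replicates 3 or 4 (0.072 to 0.12), with a replicate block (0.058) and with trends removed (0.061). Smoc1 was lower at RF than at LC (−0.50, SE 0.11, adjusted p = 0.0088), and Efemp1, a fibulin, higher (0.63, SE 0.20, adjusted p = 0.035), though not without RF replicates 2 or 3 or LC replicates 1 or 4 (0.065 to 0.15) or with trends removed (0.12). The latent TGF-beta binding protein genes Ltbp4 (0.63, SE 0.15, adjusted p = 0.0075) and Ltbp3 (0.60, SE 0.21, adjusted p = 0.042) were higher at LC than at AL. Once trends on length and GC were removed, Ltbp4 was at 0.12 (adjusted p = 0.54) and Ltbp3 at 0.20 (0.5). Ltbp3 also lost its call by DESeq2 (0.055) and on omitting RF replicates 2 or 3, LC replicates 2, 3 or 4, or any single AL library (0.05 to 0.16).

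Of 16 matrix-degrading proteases tested, 1 was higher and 2 lower at RF than at LC (6.25% and 12.5%, against 11.4% and 10.7% of all genes), and 5 were higher and 1 lower at LC than at AL (31.2% and 6.25%, against 16.0% and 15.6%). Mmp19 was at 30.7 ± 3.03 CPM at RF, 13.6 ± 1.15 CPM at LC and 42.4 ± 12.9 CPM at AL, with log2 fold changes of 1.18 (SE 0.18, adjusted p = 0.0011) at RF against LC and −1.64 (SE 0.18, adjusted p = 0.00016) at LC against AL. Adamts7, known to cleave cartilage oligomeric matrix protein, ran opposite, at 11.3 ± 1.97 CPM at RF, 29.6 ± 8.55 CPM at LC and 7.09 ± 2.19 CPM at AL, with −1.39 (SE 0.26, adjusted p = 0.0045) and 2.05 (SE 0.28, adjusted p = 0.0005). Adamts15, a related protease, was lower at RF than at LC (−1.09, SE 0.33, adjusted p = 0.031), though not without any single RF library or LC replicates 2 or 3 (0.051 to 0.1), or with trends removed (0.059). Mmp14, the membrane protease that cleaves fibrillar collagen, was higher at LC than at AL (0.66, SE 0.13, adjusted p = 0.0029). Among 21 collagen and matrix receptors, 3 were higher and 1 lower at RF than at LC (14.3% and 4.76%) and 3 were higher and 3 lower at LC than at AL (14.3% each), against 11.4% and 10.7%, and 16.0% and 15.6%, of all genes. Itga1, the subunit of a collagen-binding integrin, was higher at RF than at LC (0.58, SE 0.14, adjusted p = 0.011). Its partner Itgb1 was also higher (0.53, SE 0.13, adjusted p = 0.014), though not without RF replicate 2 (0.06), and lower at LC than at AL (−0.60, SE 0.13, adjusted p = 0.005). The laminin-binding subunit Itga7 ran opposite (−1.22, SE 0.20, adjusted p = 0.0017 at RF against LC and 1.31, SE 0.20, adjusted p = 0.0006 at LC against AL), and Dag1, dystroglycan, was lower at LC than at AL (−0.76, SE 0.15, adjusted p = 0.0023). In the list of 24 TGF-beta and fibrogenic signalling genes 0 were called by edgeR at RF against LC, against 22.1% of all genes. In that comparison 1 of the 24 had an unadjusted p below 0.05, against 36.0% of all genes (1 was higher by DESeq2 and 2 by voom). In the second comparison 4 were higher and 0 lower at LC than at AL (16.7% and 0, against 16.0% and 15.6% of all genes). Those with the smallest p were Tgfbr1, a receptor for TGF-beta (0.59, SE 0.16, adjusted p = 0.015), Smad7, an inhibitor of its signalling (0.85, SE 0.28, adjusted p = 0.032), and Lrrc32, which holds latent TGF-beta at the cell surface (0.52, SE 0.18, adjusted p = 0.039). Pdgfd was also called. Tgfbr1 lost its call without AL replicate 3 (0.076). Smad7 and Lrrc32 lost theirs without any single AL library or LC replicates 1, 3 or 4 (0.051 to 0.15) and with a replicate block (0.054 and 0.067). With trends removed Tgfbr1 (0.48, adjusted p = 0.055), Smad7 (0.54, adjusted p = 0.16) and Lrrc32 (0.15, adjusted p = 0.53) were not called. At RF against AL edgeR, DESeq2 and voom called 0 of the 159 genes of these 7 lists, where edgeR called 0.0547% of all genes. Of the 159, 32 had an unadjusted p below 0.05, a larger share than the 1381 of all 12789 genes (10.8%).

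Transcripts of the set were long and rich in G and C. The 39 genes had a median transcript length of 6091 bases and a median GC content of 54.5%, against 3393 bases and 49.7% for all genes tested with a value. The 7 genes higher at LC than at AL had a median length of 7612 bases and the 4 lower 6193 bases. Across 12664 genes, which are not independent replicates, the log2 fold change at LC against AL had a Spearman correlation of 0.24 with length and of 0.12 with GC content, and at RF against LC of −0.12 and −0.14. At RF against AL it was 0.24 with length and −0.01 with GC content. When each library's trends on length and GC content were removed, 36 of 39 estimates at LC against AL moved down, by a median of 0.28, and 35 of 39 at RF against LC moved up, by a median of 0.15. At RF against AL 25 of 39 estimates were then positive and 14 negative, with a median of 0.12, against 32, 7 and 0.29 without removal. Of the 39, 9 had an unadjusted p below 0.05, against 15. Hspg2 and Col27a1 then lost their calls at LC against AL (0.12, adjusted p = 0.53, and 0.63, adjusted p = 0.052), while Col24a1, Col4a3, Col4a5, Col6a6 and Col13a1 kept theirs, and Col4a5 lost its call at RF against LC. Newly called lower at LC than at AL were Col4a1 (−0.94, adjusted p = 0.0066), Col1a2 (−0.70, 0.038), Nid1 (−0.54, 0.045) and Col18a1 (−0.43, 0.045). That comparison then had 5 genes higher and 8 lower, against 7 and 4. At RF against LC Col1a2 (0.78, adjusted p = 0.03) and Fn1 (0.595, 0.023) were newly called higher. The part of length and GC content in the differences was not tested further.

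**Figure D5:**
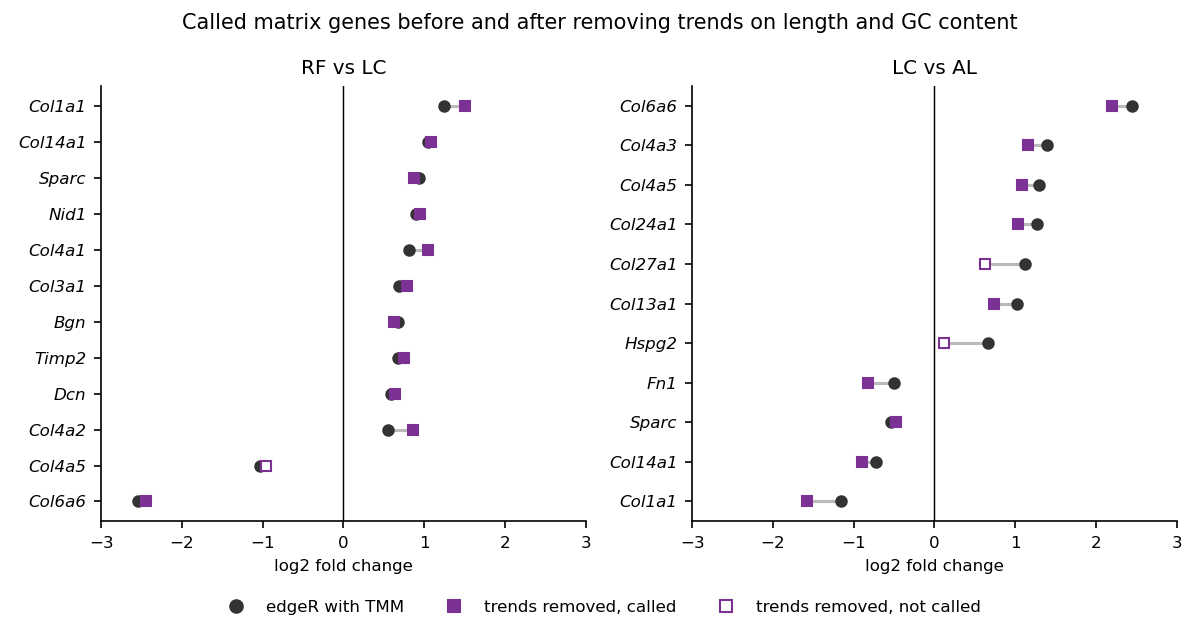
Log2 fold change of the genes called at RF against LC (left) and at LC against AL (right), with edgeR and TMM scaling (black circles) and with each library's trends on transcript length and GC content removed (purple squares, open where no longer called). At LC against AL Hspg2 was at 0.12 with the trends removed, against 0.66, and Col27a1 at 0.63, against 1.12, and Col4a5 is open at RF against LC. All 10 genes higher at RF than at LC stayed called.

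Reads were counted without strand, and annotated exons of 12 of the tested genes overlap a gene on the opposite strand in the annotation GENCODE vM21. Reads of Col4a1 and Col4a2 near their shared start, of Col4a3 with C430014B12Rik, of Col6a6 with Gm38314, of Fn1 with Apol7d, of Nid1 with Gm48682, of Timp3 with Syn3, and of Col5a1, Col15a1, Col9a3, Fbn1 and Eln with their antisense neighbours could not be told apart.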

How the data were processed

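Liver RNA of 10 samples (RF n = 3, LC n = 4, AL n = 3, grouped by their labels) was enriched for poly(A) tails and sequenced without strand, with RNA integrity numbers of 6.6 to 8.5 per the labels. The authors deposited expected counts per gene, that is, estimated counts (10.9% of values were not whole, to a tolerance of 1e-09), and deposited FPKM values, scaled by the authors for transcript length and depth. Per the submitters' processing notes, HISAT, Bowtie2 (no versions or roles) and GRCm39 were used. The counting program and its annotation were not given in the sources used here. Col21a1 and Col26a1 were not analysed here.

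Expected counts were rounded, filtered with filterByExpr (12789 of 17359 genes kept), scaled by trimmed means of M values (TMM) and fitted in edgeR 4.0.16 under R 4.3.3 (robust glmQLFit over the 10 libraries). Adjusted p-values (Benjamini-Hochberg, whole table) below 0.05 were called, and each standard error is the absolute log2 fold change divided by the root of its F statistic. CPM values include TMM factors. The fit was tested on simulated counts with known log2 changes. For each comparison only 66 or 67 of 12789 genes were changed by each amount, whereas the data had 2821 genes called at RF against LC and 4034 at LC against AL. Recovery in the data may therefore differ from that in the simulation. Unchanged genes called numbered 10 at RF against LC, 8 at LC against AL and 15 at RF against AL. Changes of 0.5 were recovered in 16.4% of cases at RF against LC, 4.48% at LC against AL and 5.97% at RF against AL. Changes of 1 were recovered in 61.2%, 76.1% and 68.7%, and changes of 2 in 93.9%, 90.9% and 93.9%. A gene that was not called may therefore still differ by a small amount. Alternatives were DESeq2 1.42.0, limma 3.58.1 (voom, and log2(FPKM + 1) or log2(FPKM + 0.1)), other scalings and filters, removal of trends on length and GC content (from GENCODE vM21, known for 12664 genes), a replicate block and leaving out each library. Every gene of the set is accounted for. Values in every library are given for called genes and for core collagens, proteoglycans and inhibitors, and the 3 called genes with the smallest p in each comparison are named for each related pathway list. Of cell type markers, those called beside the matrix genes are named. The genes and lists were chosen with earlier results of these data known. At 13871533 to 15899479 counts a library, counting error limits genes below 1 CPM. Sequences are from RefSeq, GRCm38.p6.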

Additional observations from a re-analysis of the deposited data

Results flagged for a closer look

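In each of the 39 genes tested, the 4 LC libraries were checked for a highest or lowest library that stood apart from the others (Dixon's criterion, 0.829 for 4 samples), which chance meets in about 1 of 20 groups. It was met in 1 of 39. Col24a1, a minor fibrillar collagen, had 1.51 CPM in LC replicate 4, whereas LC replicates 1, 2 and 3 had 1.94 to 1.97 CPM, a gap of 0.933 of the range. LC replicate 4 still lay above every RF and AL library for this gene.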

How the results depend on the processing

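Estimates rest on 3 or 4 libraries a group, on genes of which many lie below 5 CPM, and on an assumption that most genes do not differ. At RF against LC (10 higher, 2 lower), library totals alone gave 5 higher and 7 lower, log2(FPKM + 1) 4 and 6, log2(FPKM + 0.1) 5 and 5, voom 4 lower, and removal of length and GC trends 1 lower. At LC against AL (7 higher, 4 lower), library totals alone gave 15 and 0, log2(FPKM + 1) 14 and 0, log2(FPKM + 0.1) 15 and 0, removal of length and GC trends 8 lower, and that removal with a replicate block 4 higher. The cause of these shifts was not tested. Library totals alone moved the median of all genes from −0.02 to −0.22 at RF against LC, from 0.05 to 0.36 at LC against AL and from 0.01 to 0.12 at RF against AL, and the whole table then had 673 genes higher and 2724 lower at RF against LC, and 4395 higher and 686 lower at LC against AL. Log2(FPKM + 1) gave 717 and 2808, and 4287 and 713, and log2(FPKM + 0.1) 711 and 2694, and 4314 and 717. At RF against AL the whole table had 2 higher and 5 lower, 0 to 40 and 0 to 60 over all settings, the most with DESeq2, and 0 genes of the set in each setting. Col18a1 changed sign at LC against AL with length and GC trends removed, at −0.43 (adjusted p = 0.045), against 0.05 (adjusted p = 0.81) without that removal.

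Leaving out each library in turn gave 5 to 12 genes of the set higher and 0 to 2 lower at RF against LC, 6 to 9 higher and 0 to 5 lower at LC against AL, and 0 to 0 in each direction at RF against AL. At RF against LC there were 5 higher without RF replicate 2, 6 without LC replicate 4 and 0 lower without RF replicate 3, and 1 lower without RF replicate 1, LC replicate 1 or AL replicate 4. At LC against AL there were 0 lower without AL replicate 4 and 2 lower without LC replicate 1 or LC replicate 4. Over the whole table, 792 genes were higher and 643 lower at RF against LC without RF replicate 2, 874 and 768 without RF replicate 3, 959 and 1151 at LC against AL without AL replicate 3, and 1196 higher without AL replicate 4.

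Replicate numbers are shared between groups. Same-numbered libraries deviated together with correlations of 0.0487 to 0.252 between LC and RF, −0.0462 to 0.0654 between LC and AL, and −0.0397 to 0.0135 between RF and AL. Differently numbered libraries of LC and RF lay at −0.21 to 0.117, below replicates 1 (0.252) and 2 (0.185) of the same number. The labels do not call the numbers pairs, and the main fit did not pair them. Whether LC and RF samples of a number belong together cannot be told from the labels. With a replicate block, 10 genes of the set were higher and 3 lower at RF against LC, 8 and 4 at LC against AL, and 0 and 0 at RF against AL. Over the whole table that block gave 1613 higher and 1617 lower at RF against LC, against 1452 and 1369 without it.

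Of the called genes, 4 of 12 at RF against LC and 3 of 11 at LC against AL were called under every setting, Col6a6 among the 3, which was tested only through its LC libraries. At LC against AL library totals alone and both FPKM scales ended, among other calls in the related lists, those of Prelp, Gpc4, Ppib and Itgb1, and at RF against LC those of Itga1, Itgb1 and Lrat. Of those not called, 9 and 13 were called under at least 1 setting, and 0 of 39 at RF against AL.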

Other observations

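Ratios of chains that share a molecule were compared within libraries, chosen after their values were seen and given with no test. The ratio of Col4a1 to Col4a2 in FPKM, whose chains combine in the common type IV network, was 1.25, 1.57 and 1.44 at RF, 1.04, 1.46, 0.983 and 1.16 at LC, and 1.75, 2.17 and 1.87 at AL. Every AL library lay above every RF and LC library, while RF and LC overlapped. The ratio of Col4a3 to Col4a1, of the kidney-type and the common network, was 0.0559, 0.0351 and 0.0429 at RF, 0.114, 0.0841, 0.109 and 0.0952 at LC, and 0.0205, 0.024 and 0.0339 at AL, so the 3 groups did not overlap. Col4a1 and Col4a3 share exons with genes on the opposite strand, and reads were counted without strand. The ratio of Col1a1 to Col1a2 was 0.295, 0.421 and 0.264 at RF, 0.195, 0.234, 0.184 and 0.229 at LC, and 0.27, 0.385 and 0.45 at AL, with all LC libraries below the others, although type I collagen holds more of the first chain than of the second. The ratio of Col6a1 to Col6a2 was 2.30, 2.94 and 2.68 at RF, 5.28, 3.76, 3.14 and 7.48 at LC, and 1.72, 3.57 and 1.89 at AL, with overlap between LC and AL.

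AL replicate 2 held the highest value of Col5a2 (20.6 CPM) and of Col25a1 (3.34 CPM) among the 10 libraries. In that library 6 genes of the whole table stood over 2-fold above every other library at 3 CPM or more, while the count ranged from 1 to 19 over all libraries. What sets these values apart was not tested.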
